A study of Mus musculus with 6 samples.

Results

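The RNA of 10 genes linked to proteolysis in the outer epidermis was followed in cultured cells. These genes were chosen by name from the count table of primary mouse keratinocytes with and without iASPP: the kallikreins *Klk5*, *Klk6*, *Klk7*, *Klk8*, *Klk10* and *Klk11*, the membrane-bound proteases *Prss8* and *St14*, the protease inhibitor gene *Spink5* and the caspase gene *Casp14*. The table held 55367 gene names, of which 14916 had enough counts to be tested, and all 10 genes were among them. Keratinocytes came from the skin of newborn *Ppp1r13l* flox/flox;Cre+ERT pups of a mixed C57BL/6 and 129/Sv background, where *Ppp1r13l* encodes iASPP and the Cre recombinase, inserted at the broadly expressed ROSA locus, becomes active on tamoxifen in any cell type of the culture. Each library is bulk RNA of a whole culture, and any cells that escaped recombination are part of it. Cells in low-calcium medium, which holds keratinocytes in a basal-like state, had their medium changed after 24 h to one with tamoxifen (iASPP-KO, 3 libraries) or without it (iASPP-WT, 3 libraries). Each of 3 batches gave 1 library per condition, the iASPP-WT cultures carried the same floxed alleles and Cre, and the drug and the deletion cannot be told apart in these data. Nothing in the labels says whether a batch was a litter, an animal or a culture, so p-values measure the spread between these libraries only.

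The stratum corneum is shed by cutting the corneodesmosomes that hold its cells together. Kallikreins are secreted serine proteases that do much of this cutting, *Spink5* encodes LEKTI, the inhibitor that restrains them and whose loss causes Netherton syndrome, and KLK5 can activate other kallikreins. Matriptase (*St14*) and prostasin (*Prss8*) sit on the cell membrane as partners in a barrier-forming protease pathway, and caspase-14 takes part in the breakdown of filaggrin in cornifying cells.

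Between 20202517 and 25157117 reads per library were assigned to genes. Levels are given as CPM, the counts of a gene per 1000000 counts of its library, scaled by edgeR's trimmed mean of M-values (TMM), and fold changes as log2 of iASPP-KO over iASPP-WT with batch in the model. Adjusted p-values are those of the quasi-likelihood F-test in edgeR, corrected by Benjamini and Hochberg's method over all 14916 genes, and a gene past 0.05 is said to have risen or fallen. *Ppp1r13l* stood at 14.3, 17.7 and 5.91 CPM in iASPP-KO batches 1, 2 and 3 and at 32.7, 45.1 and 21.0 CPM in iASPP-WT, and it fell by 1.45 ± 0.18 on the log2 scale (± SE, edgeR adjusted p = 0.00296). Markers of keratinocytes (*Krt5*, *Krt14*, *Trp63*, *Itga6* and *Itgb4*) summed to between 20655 and 24104 CPM in every library, and 0 of the 5 passed the test. Batch 3 stood apart: fibroblast markers summed to 317 CPM in its iASPP-KO and 441 CPM in its iASPP-WT library, against 28.1 to 47.3 CPM in batches 1 and 2, and differentiation markers to 283 and 217 CPM, against 775 to 1637 CPM. The part of this difference in the results was not tested. In such bulk RNA, fewer cells of a type and less RNA per cell cannot be told apart.

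Of the 10 genes, 5 rose in iASPP-KO keratinocytes: *Klk7*, *Klk8*, *Klk10*, *Prss8* and *Spink5*. Across all genes tested, 2.17% rose. None of the 10 fell under edgeR's test, against 1.95% of all genes. At an unadjusted p under 0.05, 1 of the 10 (*Klk5*) was lower, as were 1206 of the 14916 genes. DESeq2 also gave 0 that fell and 1 at an unadjusted p under 0.05. The median log2 fold change of the 10 genes was 0.66, and that of all tested genes was 0.0057. Within batches, 7 of the 10 were higher in iASPP-KO in all 3 batches, as were 19.5% of all genes, and 1 was lower in all 3, as were 19.7%. The iASPP-KO libraries lay wholly above the iASPP-WT libraries for 1 of the 10 genes, *Klk8*, against 5.26% of all genes. The 5 calls rested on comparing libraries within a batch: without batch in the model, 0 of the 10 rose (1 at an unadjusted p under 0.05), with edgeR adjusted p between 0.973 and 0.977 for those 5 genes. With batch in the model, 1 of the 10 rose when batch 1 was left out, 2 when batch 2 was left out and 7 when batch 3 was left out.

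**Figure D1:**
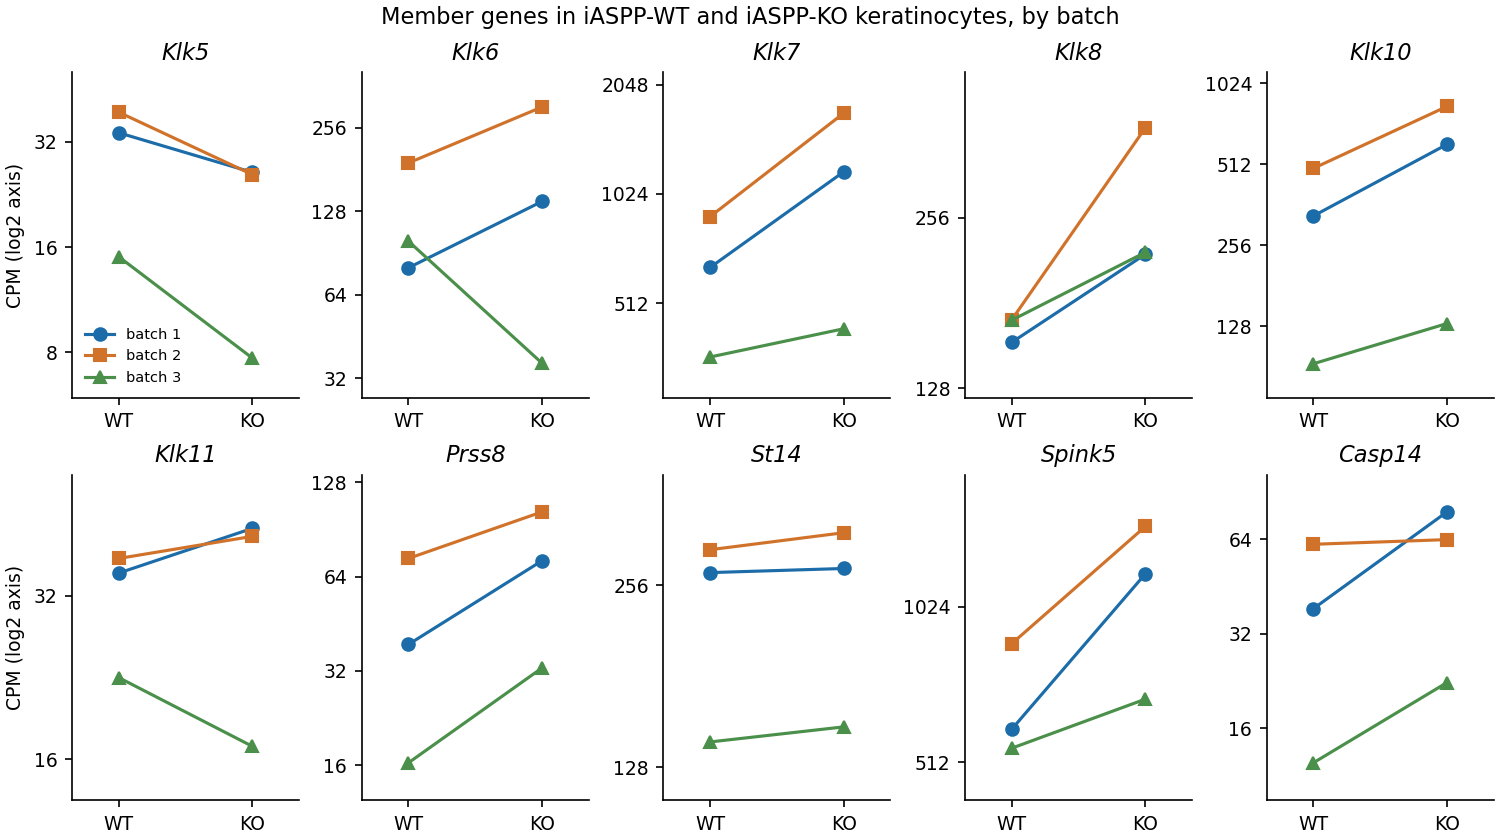
CPM (log2 axis, 1 scale per gene) of the 10 genes in iASPP-WT and iASPP-KO libraries. Each line joins the 2 libraries of a batch. Lines of *Klk7*, *Klk8*, *Klk10*, *Prss8*, *Spink5*, *St14* and *Casp14* run upward in all 3 batches, those of *Klk5* downward in all 3, and *Klk6* and *Klk11* split by batch.

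*Klk7*, the chymotrypsin-like kallikrein of the stratum corneum, had the highest level per kb of exon in both conditions. It measured 1179, 1710 and 435 CPM in iASPP-KO batches 1, 2 and 3, and 642, 887 and 364 CPM in iASPP-WT. Every iASPP-KO library was above its batch partner, while the groups overlapped because the iASPP-KO library of batch 3 was low. *Klk7* rose 1.62-fold (log2 0.70 ± 0.14 SE, edgeR adjusted p = 0.0258), with log2 fold changes of 0.88, 0.95 and 0.26 in batches 1, 2 and 3. Without batch 1 the adjusted p was 0.113, and without batch 2 it was 0.187.

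*Klk10*, a further secreted kallikrein of differentiating epidermis, had levels of 606, 839 and 131 CPM in iASPP-KO and 329, 494 and 92.9 CPM in iASPP-WT. Its libraries spread more between batches than those of any other of the 10 genes within iASPP-WT, the highest being 5.32 times the lowest, and the groups overlapped. *Klk10* rose 1.64-fold (log2 0.72 ± 0.12 SE), had the smallest edgeR adjusted p of the 10 genes at 0.00980, and was higher by 0.88, 0.76 and 0.50 in the 3 batches on the log2 scale. Leaving out batch 1 gave an adjusted p of 0.0559 and leaving out batch 2 gave 0.0722.

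*Klk8*, which encodes neuropsin, a trypsin-like kallikrein of skin and brain, stood at 221, 369 and 223 CPM in iASPP-KO and at 154, 169 and 169 CPM in iASPP-WT. Its iASPP-WT libraries were the closest of all 10 genes, the highest only 1.10 times the lowest, and it did not drop in batch 3 as *Klk5*, *Klk7*, *Klk10* and *Klk11* did. It rose 1.60-fold (log2 0.68 ± 0.15 SE, edgeR adjusted p = 0.0311), by 0.52, 1.12 and 0.40 in batches 1, 2 and 3. The batch 2 difference was the widest, and without that batch the log2 fold change was 0.46 with an adjusted p of 0.240.

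*Klk5*, the trypsin-like kallikrein able to start the activation of others, was the exception in direction. It measured 26.2, 25.8 and 7.69 CPM in iASPP-KO and 34.0, 39.0 and 15.0 CPM in iASPP-WT, from 181 to 950 counts per library. All 3 iASPP-KO libraries were below their batch partners, by 0.38, 0.59 and 0.96 on the log2 scale in absolute size, and the groups overlapped through batch 3. Its log2 fold change was -0.64 ± 0.17 (SE, 95% interval -1.02 to -0.25), with an unadjusted p of 0.00425 and an edgeR adjusted p of 0.0761. It passed the threshold in 1 of 10 alternative analyses, the one with no filter on low counts (adjusted p = 0.0246).

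*Klk6*, which encodes neurosin, changed in opposite directions in different batches. Its levels were 139, 305 and 36.2 CPM in iASPP-KO and 80.0, 191 and 99.8 CPM in iASPP-WT, so that the iASPP-KO libraries of batches 1 and 2 were above their partners and that of batch 3 was below. The log2 fold changes by batch were 0.80, 0.67 and -1.46, and the fitted value was 0.04 ± 0.36 (SE, 95% interval -0.75 to 0.83, edgeR adjusted p = 0.969). Without batch 3 the log2 fold change was 0.73 with an adjusted p of 5.02e-07, on the libraries of batches 1 and 2 alone. Without batch 1 or batch 2 the log2 fold change was -0.37 or -0.32. *Klk11* split the same way at a lower level, with 42.6, 41.2 and 16.9 CPM in iASPP-KO and 35.2, 37.5 and 22.6 CPM in iASPP-WT. Its fitted log2 fold change was 0.0025 ± 0.17 (SE, 95% interval -0.38 to 0.38, edgeR adjusted p = 0.996), and it turned to -0.13 without batch 1 and to -0.064 without batch 2.

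**Figure D2:**
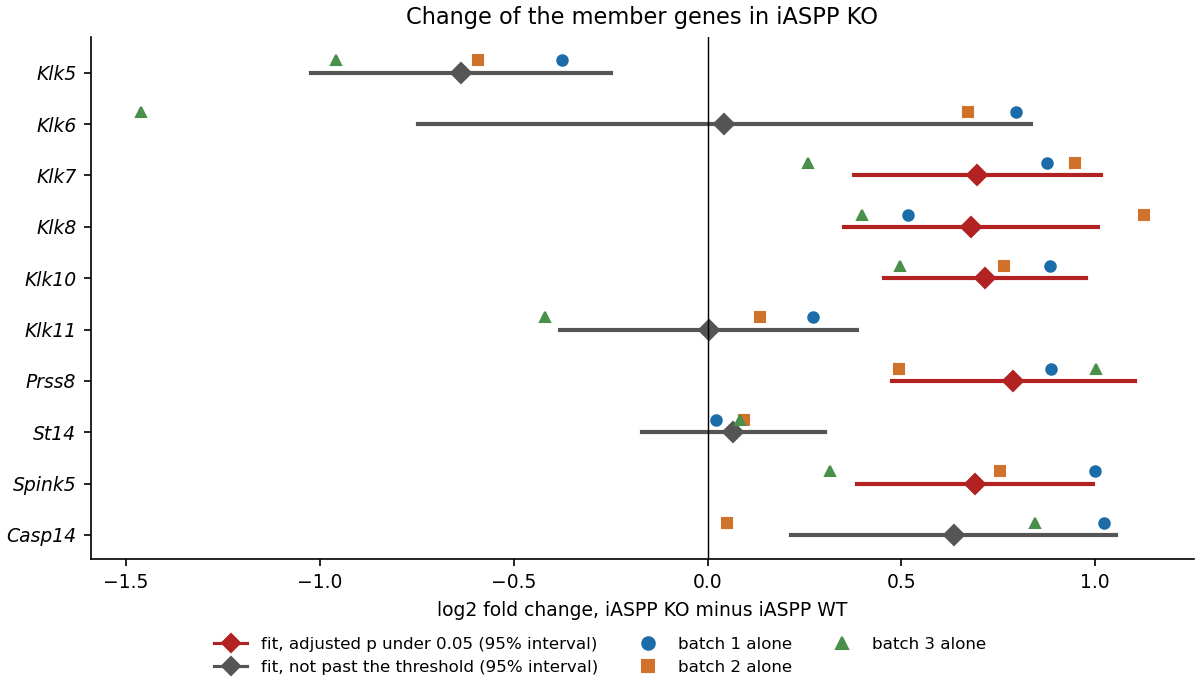
Log2 fold change of iASPP-KO over iASPP-WT for the 10 genes. Diamonds with bars are fitted values with their 95% intervals, red where the edgeR adjusted p was under 0.05, and smaller symbols are the 3 batches. The 5 red genes lie between 0.68 and 0.79, *Klk5* lies at -0.64, and the batch 3 symbol of *Klk6* lies at -1.46.

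The 6 kallikrein genes shared a chromosomal neighbourhood and a strand, and 3 of them rose. From the start of *Klk11* to the end of *Klk5* they covered 76.6 kb of chromosome 7 (mm10), in the order *Klk11*, *Klk10*, *Klk9*, *Klk8*, *Klk7*, *Klk6* and *Klk5*, all on the plus strand, and no other annotated gene lay wholly within that stretch. The 3 genes that rose, *Klk10* (43781035 to 43785410), *Klk8* (43797577 to 43803826) and *Klk7* (43811294 to 43816359), were in the middle of this stretch, with *Klk11* (43774604 to 43779263) on one side and *Klk6* (43824499 to 43832030) and *Klk5* (43841971 to 43851181) on the other. The 95% interval of *Klk6* (-0.75 to 0.83) includes changes of the size seen for these 3 genes, so *Klk6* is not shown to differ from them. *Klk9*, which lies between *Klk10* and *Klk8*, was near the lower limit of testing, with 3.47 ± 3.34 CPM in iASPP-KO and 2.22 ± 1.06 CPM in iASPP-WT (SD, n = 3 each), and its log2 fold change of 0.24 ± 0.58 (SE, edgeR adjusted p = 0.890) is too uncertain to place it with either side. Of 8 other kallikrein genes listed, 3 were tested (*Klk9*, *Klk12* and *Klk13*) and 0 passed the threshold, edgeR giving 0 also at an unadjusted p under 0.05. *Klk12* had a log2 fold change of -0.76 ± 0.82 and *Klk13* one of -0.37 ± 0.60 (SE), both under 2 CPM on average. *Klk1b22*, of the same chromosome but not on that list, was tested on 105 counts over the 6 libraries (log2 0.62 ± 0.90 SE, edgeR adjusted p = 0.806). *Klk1* and *Klk15* had 0 counts in all 6 libraries. None of the read-length windows (42 bases) of the longest transcript of each of the 6 kallikrein genes was found in a transcript of another gene, and counted exon bases outside that transcript were not searched. Of such windows in *St14*, 2.59% occurred elsewhere. A transcript on the opposite strand, 2310002F09Rik, overlaps *Klk8*, *Klk10* and *Klk11*, and it held 222 counts over the 6 libraries in this strand-specific counting.

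**Figure D3:**
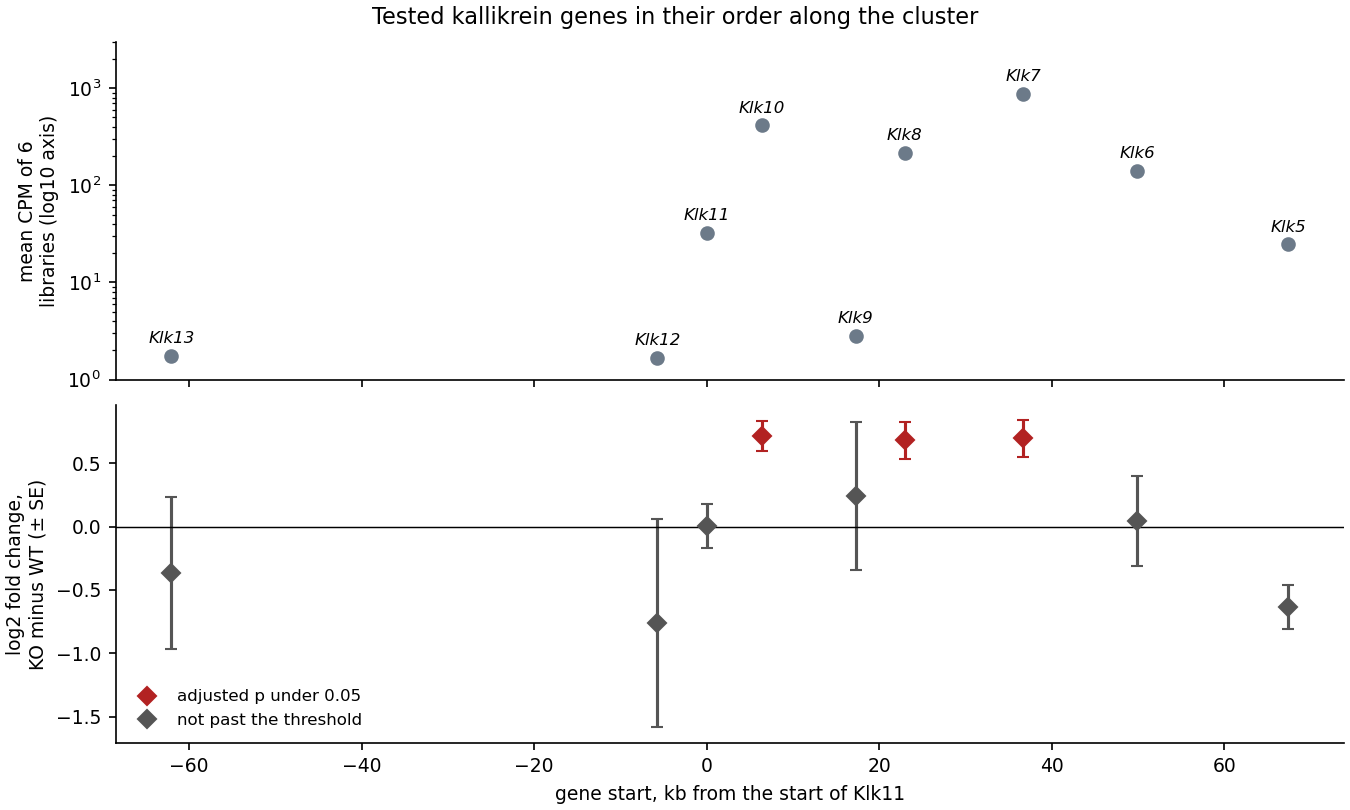
Mean CPM over 6 libraries (top, log10 axis) and log2 fold change ± SE (bottom) of the tested kallikrein genes, placed by the distance of their start from that of *Klk11*. *Klk1b22*, also tested, is not drawn. *Klk10*, *Klk8* and *Klk7* rose by 0.68 to 0.72 on the log2 scale, and *Klk11* and *Klk6* on either side lay at 0.0025 and 0.04. The 95% interval of *Klk6* (-0.75 to 0.83) includes rises of that size.

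The promoters of the 3 neighbours that rose and of *Klk5*, which went the other way, are shown to let their sequences be compared. Each runs from 250 bases before to 50 bases after the RefSeq start site (GRCm38.p6) and is written 5′ to 3′. The *Klk5* window lies wholly inside the counted span of its gene, which starts upstream at 43841971. A transcript of an earlier GENCODE release than that of the counts also starts at the RefSeq site. Capitals mark TTAAAA, searched on the gene's strand, a motif that was chosen after the sequences had been read.
*Klk10* promoter, chr7:43780804-43781103, plus strand: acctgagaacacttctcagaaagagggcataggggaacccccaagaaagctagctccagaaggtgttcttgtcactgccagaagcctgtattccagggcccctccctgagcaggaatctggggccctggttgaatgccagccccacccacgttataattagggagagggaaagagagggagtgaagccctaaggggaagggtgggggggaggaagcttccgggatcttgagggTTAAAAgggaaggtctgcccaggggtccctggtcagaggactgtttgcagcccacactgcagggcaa
*Klk8* promoter, chr7:43797327-43797626, plus strand: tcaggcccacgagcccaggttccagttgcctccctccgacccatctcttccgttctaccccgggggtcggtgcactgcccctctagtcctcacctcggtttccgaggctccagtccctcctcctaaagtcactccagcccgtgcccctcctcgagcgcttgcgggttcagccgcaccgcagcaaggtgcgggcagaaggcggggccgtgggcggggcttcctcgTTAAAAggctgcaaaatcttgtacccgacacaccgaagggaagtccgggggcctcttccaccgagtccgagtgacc
*Klk7* promoter, chr7:43811044-43811343, plus strand: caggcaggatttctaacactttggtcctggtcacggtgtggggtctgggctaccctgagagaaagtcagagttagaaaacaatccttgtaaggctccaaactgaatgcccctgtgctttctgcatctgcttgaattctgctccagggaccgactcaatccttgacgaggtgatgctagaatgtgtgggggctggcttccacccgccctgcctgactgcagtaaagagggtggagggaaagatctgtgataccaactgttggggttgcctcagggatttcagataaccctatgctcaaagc
*Klk5* promoter, chr7:43842019-43842318, plus strand: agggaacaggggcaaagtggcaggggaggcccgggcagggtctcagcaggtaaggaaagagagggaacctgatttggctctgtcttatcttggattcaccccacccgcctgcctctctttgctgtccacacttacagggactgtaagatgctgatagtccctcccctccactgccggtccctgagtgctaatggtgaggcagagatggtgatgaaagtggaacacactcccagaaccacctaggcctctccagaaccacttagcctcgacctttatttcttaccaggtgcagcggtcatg

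The motif marked in capitals was found in genes that rose and in genes that did not. Of 10 genes, 7 matched a RefSeq promoter, with 9 promoter entries in all. TTAAAA was present in 4 of the 9 (in *Klk6*, *Klk8*, *Klk10* and *Klk11*) and in 11.8% of 32851 mouse promoters of the same length. It began 26 bases before the RefSeq start in *Klk8*, 17 bases before it in *Klk10*, 68 in *Klk6* and 233 in *Klk11*. Relative to the RefSeq start, a GENCODE release earlier than that of the counts places a start at -19 in *Klk10*, upstream of the motif. In *Klk6* it places one at -55, downstream of the motif. Neither *Klk7*, which rose, nor *Klk5* held it. The AP1 site TGANTCA and the cAMP response element TGACGTCA, each searched on both strands, were in 0 of the 9, against 7.81% and 1.79% of all promoters. The windows differed in base composition, with 65.3% G and C in *Klk8*, 57.3% in *Klk10*, 55.7% in *Klk5* and 52% in *Klk7*, around a median of 52.7% over all promoters. A match describes these letters only, and no match says only that they are not in this window.

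The membrane-bound pair behaved differently from each other. *Prss8* (chromosome 7, 127925716 to 127930104) measured 71.9, 103 and 32.7 CPM in iASPP-KO batches 1, 2 and 3 and 38.9, 73.1 and 16.3 CPM in iASPP-WT. It rose 1.73-fold (log2 0.79 ± 0.14 SE, edgeR adjusted p = 0.0147), the largest fitted change of the 10 genes, and by 0.89, 0.49 and 1.00 in the 3 batches. The call was lost without batch 1 (adjusted p = 0.0575). *St14* (chromosome 9, 31089402 to 31131853), whose product matriptase activates prostasin, measured 273, 313 and 149 CPM in iASPP-KO and 269, 293 and 141 CPM in iASPP-WT, each iASPP-KO library being within 0.1 of its partner on the log2 scale. Its log2 fold change was 0.07 ± 0.11 (SE, edgeR adjusted p = 0.826), and the 95% interval of -0.17 to 0.30 leaves out changes of the size seen for *Prss8*. *Spint1* and *Spint2*, which encode the matriptase inhibitors HAI-1 and HAI-2, had log2 fold changes of 0.17 ± 0.11 and 0.36 ± 0.13 (SE, edgeR adjusted p = 0.515 and 0.183).

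*Spink5* (chromosome 18, 43963235 to 44022501) stood at 1185, 1464 and 678 CPM in iASPP-KO and at 593, 868 and 545 CPM in iASPP-WT. The inhibitor gene was higher than its batch partner in every iASPP-KO library, and only the batch 3 iASPP-KO library fell into the iASPP-WT range. It rose 1.61-fold (log2 0.69 ± 0.14 SE, edgeR adjusted p = 0.0227), by 1.00, 0.75 and 0.32 in batches 1, 2 and 3. Its adjusted p was 0.131 without batch 1 and 0.127 without batch 2. Among 12 other listed protease inhibitors, 7 were tested, 1 rose and 0 fell (edgeR, 2 higher and 0 lower at an unadjusted p under 0.05), with a median log2 fold change of 0.24. The gene that rose was *Slpi*, an inhibitor of leukocyte elastase, at 276, 407 and 81.4 CPM in iASPP-KO against 98.1, 187 and 35.8 CPM in iASPP-WT (log2 1.27 ± 0.12 SE, edgeR adjusted p = 0.00109).

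Since *Klk7* and *Spink5* rose together and *Klk5* was lower, their levels per kb of exon were set against each other within libraries, as a description of pairs chosen after their values were seen. The ratio of *Klk5* to *Spink5* was 0.0791, 0.0631 and 0.0406 in iASPP-KO batches 1, 2 and 3, and 0.205, 0.161 and 0.0987 in iASPP-WT. All 3 iASPP-KO ratios were below all 3 iASPP-WT ratios, with changes of -1.38, -1.35 and -1.27 on the log2 scale. The ratio of *Klk7* to *Klk5* went from 13.3, 16.0 and 17.1 in iASPP-WT to 31.7, 46.7 and 39.9 in iASPP-KO, again without overlap. The ratio of *Klk7* to *Spink5* instead changed by -0.12, 0.19 and -0.057 on the log2 scale, with a mean of 0.0048 ± 0.17 (SD, n = 3 batches). For *Prss8* over *St14* the log2 ratio was higher by 0.86, 0.40 and 0.92. These are ratios of RNA levels and say nothing of the amounts or activities of the proteins.

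**Figure D4:**
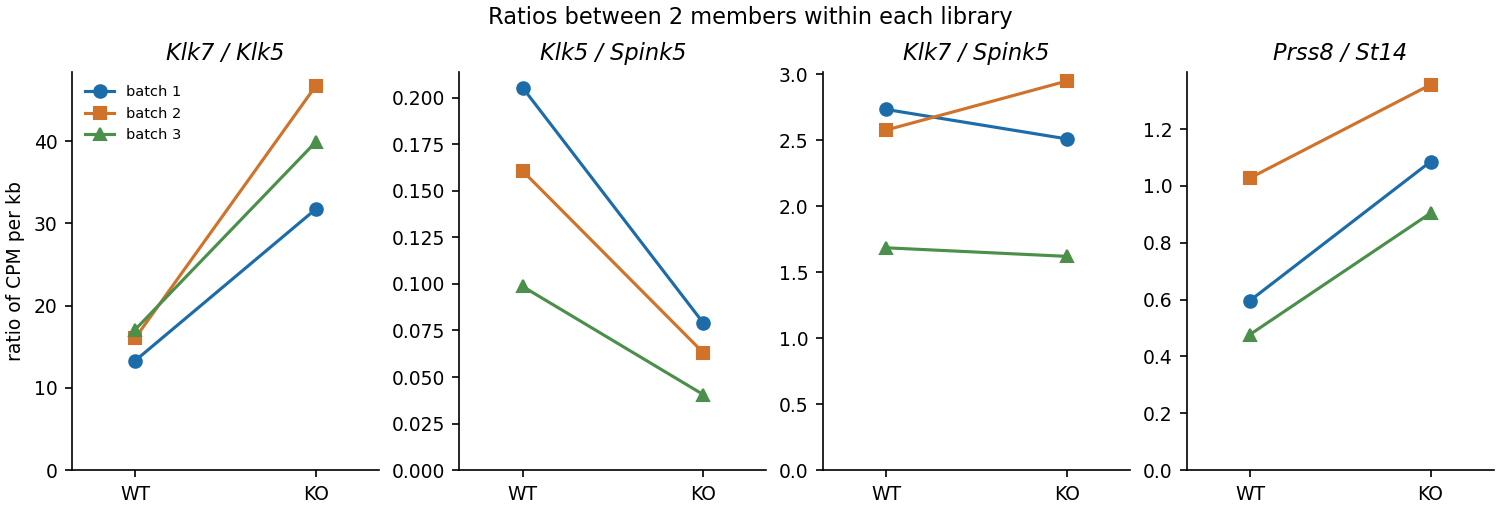
Ratios of CPM per kb of exon between pairs of the 10 genes (linear axes from 0), with each line joining the libraries of a batch. *Klk7* over *Klk5* is higher and *Klk5* over *Spink5* lower in every iASPP-KO library than in any iASPP-WT library, while *Klk7* over *Spink5* stays between 1.62 and 2.95 in all 6.

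*Casp14* (chromosome 10, 78711991 to 78718294) measured 78.3, 63.9 and 22.4 CPM in iASPP-KO and 38.5, 61.8 and 12.4 CPM in iASPP-WT. Batches 1 and 3 differed clearly and the libraries of batch 2 were nearly level, with log2 fold changes of 1.02, 0.05 and 0.84. The fitted value of 0.63 ± 0.19 (SE, edgeR adjusted p = 0.103) did not pass the threshold. The gene did pass with DESeq2 (adjusted p = 0.0359), with no filter on low counts (0.00249), without batch 2 (0.0367) and without batch 3 (0.00552). None of 9 other caspase genes passed, edgeR giving 0 also at an unadjusted p under 0.05, and their median log2 fold change was -0.19. Among 8 tested genes of filaggrin and its processing, 0 rose and 2 fell (edgeR, 3 higher and 2 lower at an unadjusted p under 0.05). Their median log2 fold change was 0.105. *Flg*, which encodes profilaggrin, was at 64.3, 70.9 and 13.3 CPM in iASPP-KO and 96.3, 98.9 and 42.5 CPM in iASPP-WT (log2 -0.89 ± 0.21 SE, edgeR adjusted p = 0.0428, and 0.0658 with robust dispersions). *Flg2*, a filaggrin relative, was at 2.09, 6.15 and 2.38 CPM against 12.7, 14.8 and 15.4 CPM (log2 -2.16 ± 0.33 SE, edgeR adjusted p = 0.00711). *Asprv1*, the retroviral-like aspartic protease gene that acts on profilaggrin, had a log2 fold change of 0.54 ± 0.15 (SE, edgeR adjusted p = 0.0839). It passed the threshold with DESeq2 (adjusted p = 0.00709), with no filter on low counts (4.29e-05) and without batch 3 (log2 0.80, 5.34e-12).

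Among 16 other serine protease genes, all tested, 1 rose and 1 fell, and their median log2 fold change was 0.39. *Tmprss2*, a membrane-bound relative of matriptase, rose by 1.19 ± 0.25 on the log2 scale (SE, edgeR adjusted p = 0.0289, and 0.0698 without batch 2). *Prss23* fell, from 388, 295 and 292 CPM in iASPP-WT to 197, 138 and 111 CPM in iASPP-KO (log2 -1.16 ± 0.12 SE, edgeR adjusted p = 0.00131). *Plau*, which encodes urokinase and had the highest level per kb of this list, gave a log2 fold change of 0.10 ± 0.11 (SE, edgeR adjusted p = 0.736). Among substrates and receptors of the epidermal proteases, 8 of 10 listed were tested, 1 rose and 1 fell. *Cdsn*, which encodes the corneodesmosome protein corneodesmosin, was at 776, 838 and 126 CPM in iASPP-KO and 223, 478 and 91.1 CPM in iASPP-WT (log2 1.03 ± 0.21 SE, edgeR adjusted p = 0.0257). It lost its call without batch 1 (0.0561), with DESeq2 (0.0940) and with robust dispersions (0.0974). *F2rl1*, which encodes the protease-activated receptor PAR2, was at 19.2, 23.0 and 13.0 CPM in iASPP-KO, all below the 34.0, 63.2 and 40.9 CPM of iASPP-WT, and fell by 1.31 ± 0.18 on the log2 scale (SE, edgeR adjusted p = 0.00484). *Dsg1b*, a desmoglein of the suprabasal layers, had a log2 fold change of 0.31 ± 0.12 (SE, adjusted p = 0.209), and 0.41 with an adjusted p of 0.0103 without batch 3. *Dsg1a* of the same list was lower in all 3 batches (log2 -0.74 ± 0.19 SE, edgeR adjusted p = 0.0558). *Dsc1* had a log2 fold change of -0.39 ± 0.29 (SE, edgeR adjusted p = 0.585).

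Markers of differentiation did not move as a block beside these genes. Of 6, 2 rose and 1 fell: *Tgm1* (log2 0.57 ± 0.12) and *Tgm3* (1.45 ± 0.34), both transglutaminases of the cornified envelope, had edgeR adjusted p of 0.0292 and 0.0428, and the suprabasal keratin gene *Krt10* had -1.31 ± 0.29 (SE, edgeR adjusted p = 0.0330). *Tgm1* lost its call without batch 1 (0.222) or batch 2 (0.112), and so did *Krt10* (0.161 and 0.150). *Krt10* (0.146 and 0.159) and *Tgm3* (0.165 and 0.420) also lost theirs with DESeq2 and with robust dispersions. The median log2 fold change of the 6 was 0.45, and edgeR gave 3 higher and 1 lower at an unadjusted p under 0.05. *Ivl* had 0.62 ± 0.18 and was higher in all 3 batches, *Lor* had 0.32 ± 0.19 and *Krt1* had -0.31 ± 0.15 (SE). Their edgeR adjusted p were 0.100, 0.475 and 0.345. Of other cell types, 3 of 5 macrophage markers were tested and summed with the rest of their list to 11.8 to 29.2 CPM in iASPP-KO and 5.30 to 15.1 CPM in iASPP-WT. *Csf1r* rose (log2 1.11 ± 0.21 SE, edgeR adjusted p = 0.0206, and 0.0612 and 0.112 without batch 1 and batch 2), and *Adgre1*, which encodes F4/80, was higher in all 3 batches at few counts (21, 1 and 54 in iASPP-KO and 11, 0 and 15 in iASPP-WT) without passing the test (log2 1.46 ± 1.06 SE, edgeR adjusted p = 0.569). *Ptprc*, the other tested marker, had 7, 8 and 50 counts in iASPP-KO and 25, 0 and 48 in iASPP-WT (log2 0.16 ± 1.11 SE, edgeR adjusted p = 0.965). The defining markers *C1qa* and *C1qb* had 0 counts in the iASPP-KO libraries of batches 1 and 2, with 48 counts of *C1qa* in iASPP-KO and 13 in iASPP-WT of batch 3. Fibroblast markers were tested for 5 of 5, ranged from 32.6 to 317 CPM in iASPP-KO and from 28.1 to 441 CPM in iASPP-WT in sum, and 1 fell (*Col1a2*, log2 -0.55 ± 0.13 SE, edgeR adjusted p = 0.0428, and 0.105, 0.275 and 0.238 without batches 1, 2 and 3). *Pdgfra* of the same list had a log2 fold change of 0.81 ± 0.34 (SE, edgeR adjusted p = 0.258), with 1.29, 1.60 and -0.42 in batches 1, 2 and 3. It passed the threshold without batch 3 (log2 1.46, adjusted p = 5.79e-07) and with no filter on low counts (0.00243). The sums of the fibroblast list were higher in iASPP-KO than in iASPP-WT in batches 1 and 2 and lower in batch 3. The higher sums of batches 1 and 2 came from *Pdgfra*. In these batches the log2 fold changes were -0.45 and -0.72 for *Col1a2* and -0.61 and 0.49 for *Dcn*. They were 0.18 and 0.051 for *Col1a1*, and 1.01 and -1.08 for *Lum*, which had few counts. The sums therefore do not show that fibroblast markers as a set were higher in iASPP-KO in batches 1 and 2. None of 4 melanocyte markers passed, with sums of 383 to 992 CPM in iASPP-KO and 328 to 1048 CPM in iASPP-WT. Mast cell markers summed to at most 0.980 CPM in any library and endothelial markers to at most 5.93 CPM. The part of these lists in the changes of the 10 genes was not tested.

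Per kb of exon, the iASPP-WT levels ran from *Klk7* (333 ± 138 CPM per kb, SD, n = 3) through *Klk10* (222 ± 147), *Spink5* (140 ± 36.5), *Klk8* (107 ± 5.51), *Klk6* (81.8 ± 39.2), *St14* (30.7 ± 10.7), *Prss8* (23.1 ± 15.5), *Klk5* (22.0 ± 9.47) and *Klk11* (21.7 ± 5.46) to *Casp14* (15.7 ± 10.3). Only *Spink5* and *Klk8*, and *Klk6* and *St14*, were neighbours in this order whose libraries did not overlap. The place of *St14*, and its separation from *Klk6*, rest on its 7637 counted exon bases. Its longest transcript had 3550 bases, and the order over that shorter length was not worked out. In iASPP-KO the first 5 kept their order, from 585 ± 338 for *Klk7* to 106 ± 89.5 for *Klk6*, and all neighbours overlapped. *Klk5* came last there, at 14.9 ± 7.91 CPM per kb, below *Klk11* in each of the 3 iASPP-KO libraries, whereas it was above *Klk11* in 2 of the 3 iASPP-WT libraries.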

How the data were processed

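RNA of 6 cultures was ribodepleted and sequenced as single 42-base reads. Per the labels and the study's methods, the authors trimmed reads with cutadapt 2.10 after FastQC 0.11.9, aligned them to mm10 with STAR 2.7.3 and counted reverse-stranded exon reads per gene name (GENCODE vM25) with featureCounts 2.0.0. The deposited count table holds raw counts, and its exon lengths (other values) came from the authors' counting. The authors' table of fold changes and p-values was not used.

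Counts were filtered with filterByExpr, TMM-scaled and fitted with edgeR 4.0.16 (R 4.3.3), with batch and condition as terms. Libraries carried a batch in their labels, and deviations from the group means correlated by 0.302, 0.368 and 0.568 within batches and by -0.427 to 0.179 across them. No 2 libraries of the same condition were copies, and pairs across conditions were not checked for this. Residual degrees of freedom were 2 in the main fit and fewer with a batch left out, where even small p-values rest on few libraries. The scripts were tested on simulated data. Transcript starts, overlapping transcripts and read-length windows were taken from an earlier GENCODE release than the one used for counting. Alternatives were DESeq2 1.42.0, 2 other scalings, 2 other filters (at least 1 count in all, at least 10 in every library), robust dispersions, no batch term, and each batch left out. Named genes were the 10 genes, *Ppp1r13l*, and from each list those past the threshold plus up to 3 with the highest level per kb, with the 2 tested genes most correlated with each member that rose, of which 1 is not reported here. The members and lists were chosen with earlier results of these data known.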

Additional observations from a re-analysis of the deposited data

How the results depend on the processing

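Without the batch block that pairs the libraries, 0 genes rose and 0 fell (360 and 331 at an unadjusted p under 0.05), and 0 of the 10 genes rose. With no filter beyond 1 count, 624 genes rose and 491 fell, and 1 of the 10 (*Klk5*) fell. With 1 batch left out, 169 to 793 genes rose and 117 to 662 fell, against 323 and 291 with all libraries, and 1 to 7 of the 10 genes rose. DESeq2 gave 480 and 407 genes, its size factors 369 and 326, upper-quartile scaling 364 and 331, at least 10 counts in every library 383 and 328, and robust dispersions 383 and 359, with 5 or 6 of the 10 genes rising in each. *Klk6* turned to -0.37 and -0.32 without batch 1 and batch 2 (0.73 without batch 3), and *Klk11* to -0.13 and -0.064 (0.20 without batch 3). *Klk9* turned to -0.52 without batch 2 (0.67 without batch 3). Of 100 log2 fold changes of the 10 genes under alternatives, 77 kept their direction and their side of the threshold, 13 lost and 6 gained a call, and 4 reversed. The cause was not tested, and a fit with a batch left out also has fewer libraries. The lowest count of any of the 10 genes in a library was 181, and with 3 libraries a group and 2 residual degrees of freedom a gene that did not pass is not shown to be unchanged.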

Other observations

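Across the 6 libraries, log2 CPM of *Klk7* and *Klk10* varied together (Pearson r = 0.97), as did *Klk10* and *Casp14* (0.97), *Klk10* and *St14* (0.96) and *Klk10* and *Prss8* (0.96). *Klk5* was nearest to *Klk11* (0.90) and least like *Klk8* (-0.14) and *Spink5* (0.34). *Klk8* was nearest to *Spink5* (0.81). These values describe 6 libraries that share 3 batches, and the low levels of batch 3 enter most of them.

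Tested genes outside the 10 whose log2 CPM was among the most like that of each gene that rose, by Pearson r over the same 6 libraries, were *Rnf39* and *Zswim4* for *Klk7* (r = 0.998 for both), *Mmadhc* (0.981) and *Rapgef3* (0.975) for *Klk8*, *Mfsd11* (0.999) and *Uso1* (0.998) for *Klk10*, *Exph5* (0.997) for *Prss8*, and *Eef1akmt4* (0.997) and *Mxd1* (0.996) for *Spink5*. Of these, *Mxd1*, which encodes a MAX-binding repressor, rose itself (log2 1.15, edgeR adjusted p = 0.00401), as did *Rapgef3* (1.20, edgeR adjusted p = 0.00926), *Rnf39* (0.64, edgeR adjusted p = 0.0458) and *Exph5* (0.52, edgeR adjusted p = 0.0437).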
